A study of Heterocephalus glaber with 23 samples.

Results

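Circadian clock genes were examined in the liver of naked mole-rats (NMR, Heterocephalus glaber), a long-lived rodent whose colonies hold a single breeding pair and many non-breeding workers. The members were 10 genes taken by symbol: the activators ARNTL and CLOCK, the repressors PER1, PER2, PER3, CRY1 and CRY2, the nuclear receptors NR1D1 and NR1D2, and the output gene DBP. Of these 10 genes, 9 had a row among the 16339 rows of the count table and 8 passed the filter on low counts, which left 12306 genes to test. CLOCK was not analysed here, and PER3, with 110 reads in all libraries together, is given by its counts.

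RNA-seq libraries came from 6 female breeders, 6 male breeders, 5 female non-breeders and 6 male non-breeders, 1 library per animal. No genotype or agent sets the groups apart. Mean age ± SD was 3.52 ± 0.183 years in the 6 female breeders, 3.52 ± 0.571 in the 6 male breeders, 3.42 ± 0.669 in the 5 female non-breeders and 3.42 ± 0.564 in the 6 male non-breeders. Breeders had been taken out of established colonies and paired with a partner, while their litter siblings stayed behind as non-breeders, so that colony and housing cannot be told apart from status. Males that bred were sampled within days of a birth, females that bred some weeks after a pregnancy had ended, and this interval cannot be told apart from sex among breeders. All animals lived in darkness apart from the daily hours of animal care, were fed every day, and were sampled at an hour that is not given in the sources used here. Nothing in the labels says which animals share a litter, and all were treated as independent.

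The circadian clock is a feedback loop of transcription that runs in nearly every mammalian cell, hepatocytes included. The proteins of ARNTL (also called BMAL1) and CLOCK bind DNA as a pair and switch on the PER, CRY, NR1D and DBP genes. PER and CRY proteins then return to the nucleus and block that pair, while NR1D1 and NR1D2 (REV-ERB alpha and beta) repress ARNTL, so that in mouse liver ARNTL transcripts peak at a time of day opposite to that of the PER, NR1D and DBP transcripts. Feeding time and glucocorticoids shift the liver clock in mouse. A single sample per animal gives 1 point of such a cycle, not its phase or amplitude.

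Library totals lay between 11826665 and 22969366 counts. All 10 hepatocyte markers were detected in every group, at a summed 106575 to 229495 counts per 1000000 of scaled library size (CPM). Female breeder 6, male breeder 5 and male non-breeder 3 lay far from the other libraries along principal component 1 (26.4% of the variance), and the clock genes were also fitted without them. The study lists shorter reads for all 6 female breeders and for male breeders 1 to 3, and longer reads for the other 14 libraries, so that read length and status cannot be told apart in females.

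ARNTL, the partner of CLOCK in the activating pair, had the smallest p for status of the 8 clock genes tested in females and over both sexes, and PER1 in males, all short of the threshold. ARNTL levels were higher in breeders. It stood between 4.06 and 12.8 CPM in female breeders with a median of 8.85, against 5.60, 5.44, 7.96, 5.46 and 3.60 CPM in the 5 female non-breeders. Male breeders lay between 5.30 and 10.8 CPM with a median of 7.90, against 4.25 to 7.40 CPM with a median of 5.75 in male non-breeders. In both sexes the groups overlapped, and 10 of 12 breeders lay above the mean of the non-breeders of their sex. Female breeders 5 and 6 and male breeder 6 had the lowest breeder levels.

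The log2 fold change of ARNTL was 0.61 ± 0.25 in female breeders over female non-breeders (SE, edgeR quasi-likelihood test, adjusted p = 1). In male breeders over male non-breeders it was 0.43 ± 0.24 (SE, edgeR, adjusted p = 0.881). Averaged over both sexes it came to 0.52 ± 0.17, a 1.43-fold higher level in breeders with a 95% interval on the log2 scale of 0.17 to 0.87 (SE, edgeR, adjusted p = 0.370). The difference between the sexes in this status effect was 0.17 ± 0.34 (SE, edgeR, adjusted p = 1). Between females and males within a status ARNTL differed by 0.11 ± 0.23 in breeders and by -0.06 ± 0.25 in non-breeders (log2 fold change ± SE). Ordered by mean, female breeders and male breeders stood highest, then male non-breeders and female non-breeders, and no neighbours in that order differed at the threshold. The female difference was 0.46 without female breeder 1 and 0.75 once the 3 libraries that stood apart were left out (adjusted p = 0.814 in edgeR), and the male difference was 0.45 among the libraries of longer reads.

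Markers of other cells also differed by status over both sexes, short of the threshold. The tested macrophage markers (5 of 5 lower in breeders), leukocyte markers (5 of 5) and stellate and fibroblast markers (4 of 5) had median log2 fold changes of -0.56, -0.55 and -0.52. Their summed levels were 73.9 to 210 CPM in breeders and 122 to 352 CPM in non-breeders for macrophages, 15.7 to 87.5 CPM in breeders and 21.8 to 247 CPM in non-breeders for leukocytes, and 52.2 to 186 CPM in breeders and 71.9 to 197 CPM in non-breeders for stellate cells and fibroblasts. The 3 striated muscle markers tested had a median of 1.23, with sums of 0.831 to 123 CPM in breeders and 0.700 to 3.05 CPM in non-breeders, and 9 of 10 hepatocyte markers were below 0, with a median of -0.19 and sums of 106575 to 208602 CPM in breeders and 118027 to 229495 CPM in non-breeders. Of 6 macrophage markers with a row, 1 was at 0 in all libraries of each group other than female non-breeders. Medians in females and in males were -0.24 and -0.66 for macrophage and -0.17 and -1.03 for leukocyte markers. They were -0.21 and -0.83 for stellate and fibroblast, 2.13 and 0.33 for striated muscle and -0.29 and -0.09 for hepatocyte markers. The 6 endothelial markers were all below 0 over both sexes, with a median of -0.17. Their medians were -0.14 in females, with 4 of 6 below 0, and -0.19 in males, with 6 of 6 below 0. The 3 bile duct markers were also all below 0 over both sexes, with a median of -0.11. After subtraction of group means, ARNTL had Pearson r between -0.17 (striated muscle) and 0.19 (macrophage) with the means of these lists other than endothelial. ARNTL had r = 0.52 with the endothelial markers (permutation p = 0.0259, adjusted p = 0.311). That r was 0.69 among libraries of shorter and 0.43 among those of longer reads. All r over the 23 libraries were short of the threshold. The part of these markers in the ARNTL differences was not tested.

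**Figure D1:**
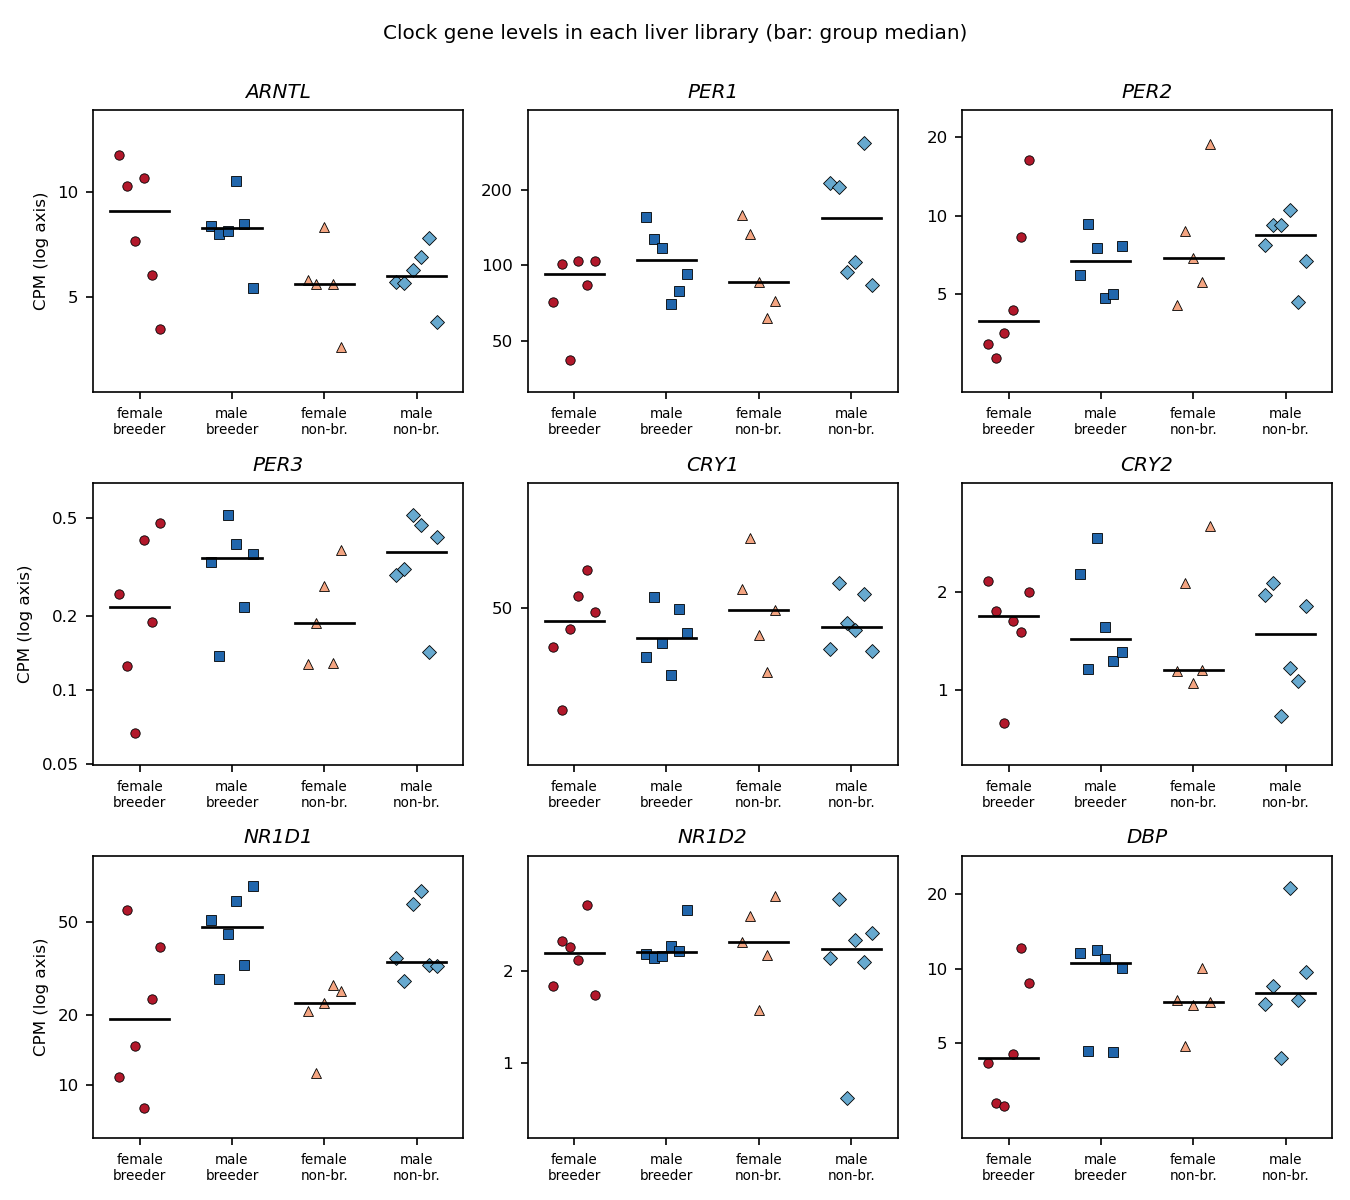
Levels of the 9 clock genes with a row in the table, in CPM on a log axis, with 1 point per liver library in female breeders, male breeders, female non-breeders and male non-breeders and a bar at each group's median. ARNTL medians were 8.85 and 7.90 CPM in female and male breeders, against 5.46 and 5.75 CPM in female and male non-breeders, and NR1D1 medians were 19.1 and 22.5 CPM in female breeders and female non-breeders, against 47.5 and 33.8 CPM in males of the same status.

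No clock gene passed the threshold of adjusted p 0.05 for status with edgeR, in females, in males or over both sexes, where 0% of all genes tested passed in each comparison. At an unadjusted p under 0.05, edgeR found 1 of 8 clock genes in females, where 3.7% of all genes tested did so, 0 of 8 in males, where 5.88% did, and 1 of 8 over both sexes, where 7.94% did. That gene was ARNTL. Without the 3 libraries that stood apart edgeR found 2 in females (ARNTL and PER2), 0 in males and 3 over both sexes (ARNTL, PER1 and PER2), with 0 called. DESeq2 and limma voom called 0 clock genes as well in these 3 comparisons, and had 1 and 2 at an unadjusted p under 0.05 in females, 1 each in males and 2 each over both sexes. The median log2 fold change of the 8 genes was -0.14 in females, -0.01 in males and -0.08 over both sexes, beside 0.01 and -0.02 for all genes in females and in males. The 8 genes tested for a status difference between the sexes gave 0 calls in edgeR and 0 at an unadjusted p under 0.05, where 0% and 1.85% of all genes did. DESeq2 and limma voom also had 0 there at both limits.

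PER1 and PER2 encode period proteins, and PER1 is in mouse also an early response gene that glucocorticoids and cyclic AMP switch on. PER1 had between 42.0 and 105 CPM in female breeders with a median of 92.3, against 158, 133, 86.1, 61.6 and 72.2 CPM in female non-breeders. It had between 70.4 and 157 CPM in male breeders with a median of 105, against 83.3 to 309 CPM with a median of 154 in male non-breeders. Male non-breeders 1, 2 and 5 had the top PER1 levels, above all libraries of the other groups, and the ranges of all groups overlapped. Its group mean was highest in male non-breeders, followed by male breeders, female non-breeders and female breeders.

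In male breeders over male non-breeders the log2 fold change of PER1 was -0.65 ± 0.31 (SE, edgeR, adjusted p = 0.850), with 1 of 6 breeders above the mean of the non-breeders. Without male non-breeder 5 it was -0.38 (adjusted p = 0.993 in edgeR). Among the libraries of longer reads alone it was -1.06 (adjusted p = 0.928 in edgeR). In females the status difference was -0.28 ± 0.33 (log2 fold change ± SE). Female over male non-breeders gave -0.72 ± 0.33 (SE, edgeR, adjusted p = 0.856), with 1 of 5 females above the male mean. That value rested in part on male non-breeder 5, at 309 CPM, without which it was -0.45 (adjusted p = 0.867 in edgeR). In breeders the difference between females and males was -0.35 ± 0.31, and -0.67 among the libraries of shorter reads (adjusted p = 1 in edgeR). Markers of other cells were lower in male breeders as well, short of the threshold: the 5 stellate and fibroblast markers had a median log2 fold change of -0.83, with sums of 52.2 to 76.4 CPM in male breeders and 75.5 to 129 CPM in male non-breeders, and 5 of 6 leukocyte markers, those tested, had a median of -1.03, with sums over all 6 of 17.4 to 69.0 CPM in male breeders and 27.1 to 247 CPM in male non-breeders. None of these markers was at 0 in all libraries of a group. The 5 macrophage markers tested had a median of -0.66, all below 0, with sums over the 6 with a row of 73.9 to 196 CPM in male breeders and 128 to 260 CPM in male non-breeders, and the endothelial and bile duct markers had medians of -0.19 and -0.12. The 14 immediate early genes, which respond within minutes to many stimuli, had a median log2 fold change of -0.51 in that comparison, where all genes had -0.02. After subtraction of group means, PER1 had Pearson r = -0.53 with the mean of the stellate and fibroblast markers and -0.42 with the leukocyte markers. It had -0.01 with macrophage, 0.32 with endothelial and -0.56 with bile duct markers, and 0.09 with the immediate early genes. All were short of the threshold. The part of these markers and genes in the PER1 differences was not tested. In whole tissue, fewer cells of a type and less RNA per cell cannot be told apart.

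PER2 ran from 2.81 to 16.3 CPM in female breeders with a median of 3.93, against 4.52, 8.69, 6.86, 5.52 and 18.9 CPM in female non-breeders. Male breeders had between 4.83 and 9.31 CPM with a median of 6.70, against 4.63 to 10.5 CPM with a median of 8.44 in male non-breeders. Female breeder 6 and female non-breeder 5 stood far above the other females, and the groups overlapped. Its log2 fold change was -0.48 ± 0.40 between female breeders and female non-breeders and -0.26 ± 0.38 between male breeders and male non-breeders (SE). The female value was -1.01 without female breeder 6 (adjusted p = 1 in edgeR) and -0.01 without female non-breeder 5. With all 3 libraries that stood apart left out it was -1.01 (adjusted p = 0.873 in edgeR). The sexes differed by -0.07 ± 0.39 in breeders and 0.16 ± 0.40 in non-breeders (log2 fold change ± SE), a direction that turned when single libraries were left out.

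PER3, the third period gene, had 1 to 6 reads per library in female breeders, 2 to 9 in male breeders, 2 to 7 in female non-breeders and 2 to 8 in male non-breeders. That is too few to be kept by the filter, and such a depth allows no statement on a difference. Fitted without the filter, it gave a log2 fold change of -0.41 ± 0.43 between female and male breeders and -0.67 ± 0.44 between female and male non-breeders (SE). Breeders over non-breeders gave 0.15 ± 0.46 in females and -0.11 ± 0.40 in males (log2 fold change ± SE).

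**Figure D2:**
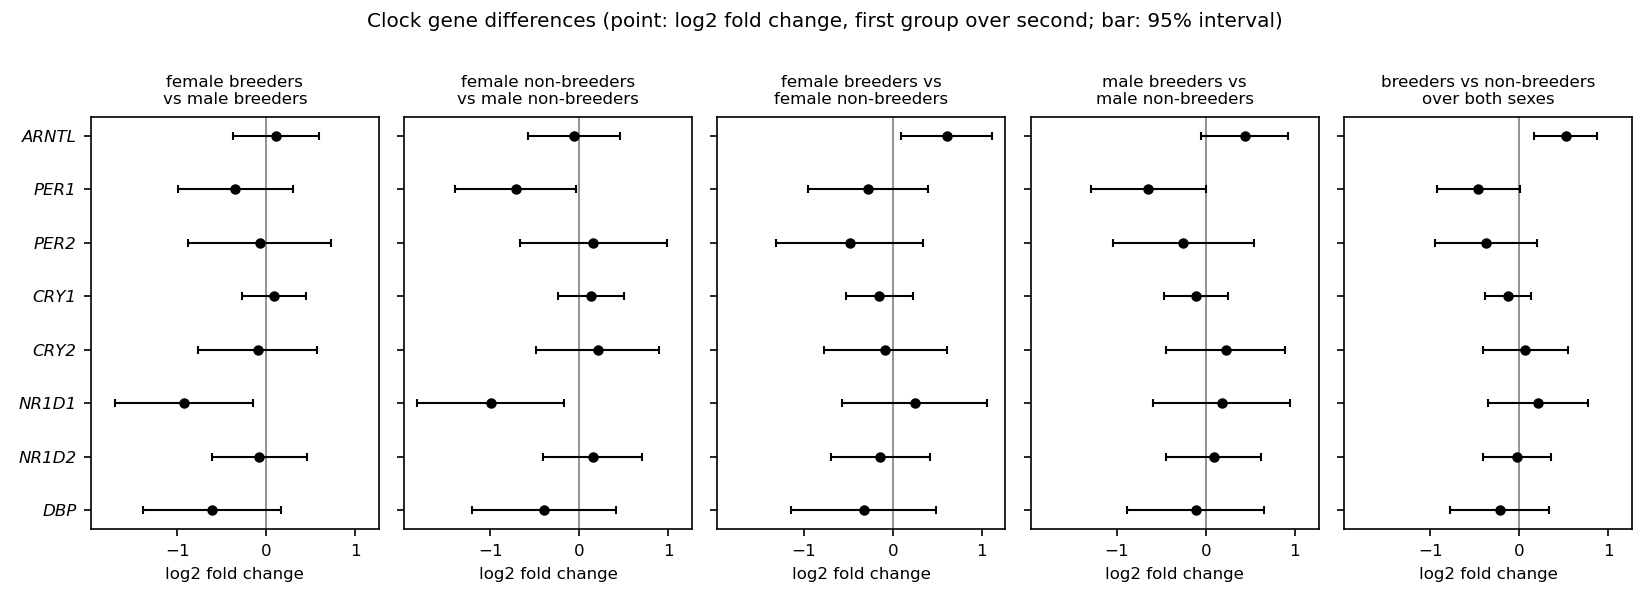
Log2 fold change, first group over second, of the 8 clock genes tested in 5 comparisons (points) with 95% intervals (bars) from edgeR. The intervals that leave out 0 are those of NR1D1 in both sex comparisons, PER1 between female and male non-breeders, and ARNTL between female breeders and female non-breeders and over both sexes; no adjusted p was below 0.370.

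CRY1 and CRY2 encode cryptochromes, the partners of the period proteins in repression. CRY1 was the steadiest clock gene, with 28.6 to 61.6 CPM in female breeders, 34.6 to 53.0 in male breeders, 35.1 to 73.1 in female non-breeders and 39.5 to 57.0 in male non-breeders. Its medians of 46.6, 42.5, 49.3 and 45.1 CPM in these groups lay within the spread of each group. The 4 group comparisons of CRY1 gave log2 fold changes between -0.15 and 0.13, with intervals that reached -0.53 at the low end and 0.51 at the high end. CRY2 was sequenced at only 12 to 60 reads per library. Its means were 1.64 ± 0.473 CPM for female breeders, 1.74 ± 0.702 for male breeders, 1.73 ± 0.917 for female non-breeders and 1.49 ± 0.535 for male non-breeders (± SD over 6, 6, 5 and 6 animals). Its log2 fold changes lay between -0.10 and 0.22, with intervals that reached -0.78 at the low end and 0.90 at the high end. These ends come from different comparisons, and differences inside the interval of a comparison are compatible with its data.

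NR1D1, the receptor REV-ERB alpha, had the widest range of levels among the members that were tested, 8.89-fold between the lowest and the highest library. Its level was lower in females than in males of either status, short of the threshold. The 6 female breeders had 10.8, 56.0, 14.8, 7.99, 23.5 and 39.1 CPM, against 50.8, 28.5, 44.2, 61.7, 32.8 and 71.0 CPM in the 6 male breeders. Female breeders 2 and 6 lay within the male range and the other 4 below all males. The 5 female non-breeders had 20.8, 11.3, 22.5, 26.9 and 25.2 CPM, against 35.0, 28.0, 59.7, 68.2, 32.6 and 32.3 CPM in the 6 male non-breeders. Here the ranges of females and males did not overlap, which held for 0.284% of all genes tested. The highest female, at 26.9 CPM, and the lowest male, at 28.0 CPM, lay close together.

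The log2 fold change of NR1D1 was -0.93 ± 0.38 in female over male breeders (SE, edgeR, adjusted p = 0.760) and -0.997 ± 0.399 in female over male non-breeders (SE, edgeR, adjusted p = 0.856). The 95% intervals ran from -1.70 to -0.15 in breeders and from -1.82 to -0.17 in non-breeders. After these values had been seen, the sex difference was also averaged over both statuses, which gave -0.96 ± 0.27, a level in females 0.513 times that in males (SE, edgeR, adjusted p = 0.267), with 10 of 11 females below the mean of the males of their status. The change of the sex difference with status was 0.07 ± 0.54 (log2, SE). Breeders and non-breeders of a sex differed by 0.25 ± 0.39 in females and 0.18 ± 0.37 in males (log2 fold change ± SE). Ordered by mean, male breeders and male non-breeders stood highest and female breeders and female non-breeders lowest, and the spread within each sex was larger than the step between its groups.

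Limma voom with library quality weights gave a larger sex difference of NR1D1 in breeders, -1.67 (adjusted p = 0.0551), while among libraries of shorter reads edgeR gave -0.70 (adjusted p = 1). Over both statuses limma voom called NR1D1, at -1.22 (adjusted p = 0.0217), and DESeq2 gave an adjusted p of 0.0675 there. In breeders edgeR gave -1.33 without female breeder 2 (adjusted p = 0.488) and -0.73 without female breeder 4 (adjusted p = 0.872). Without the 3 libraries that stood apart it gave -1.18 in breeders (adjusted p = 0.342), -0.88 in non-breeders (adjusted p = 0.996) and -1.03 over both statuses (adjusted p = 0.208). Other markers differed between the same breeders: the 5 stellate and fibroblast markers had a median log2 fold change of 0.68, with sums of 69.8 to 186 CPM in female breeders and 52.2 to 76.4 CPM in male breeders, and the 5 striated muscle markers with a row summed to 123 CPM in female breeder 2 and 106 CPM in female breeder 6, against 6.00 CPM at most in male breeders, where 1 of the 5 was at 0 in all libraries. The tested macrophage and leukocyte markers, 5 each, were all above 0, with medians of 0.42 and 0.58. The 6 endothelial markers were also all above 0, with a median of 0.17. Of the 3 bile duct markers tested, 2 were above 0 and 1 below, with a median of 0.31. The bile duct markers summed to 141 to 185 CPM in female breeders and 191 to 230 CPM in male breeders. After subtraction of group means, NR1D1 had Pearson r = -0.07 with the mean of the stellate and fibroblast markers and 0.40 with the striated muscle markers. It had -0.02 with macrophage, 0.09 with leukocyte, -0.18 with endothelial and 0.06 with bile duct markers. All were short of the threshold. The part of these markers in the sex difference of NR1D1 was not tested. In non-breeders the leukocyte markers had a median of -0.73, with 4 of 5 below 0 and sums of 21.8 to 76.7 CPM in females and 27.1 to 247 CPM in males. There the striated muscle markers had a median of -0.63, the stellate and fibroblast markers one of -0.08 and the macrophage markers one of 0.04. The endothelial and bile duct markers had medians of 0.08 and -0.08 in non-breeders. The part of all these lists was not tested either.

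In other mammals NR1D1 overlaps THRA, a thyroid hormone receptor gene on the other strand, and these reads carry no strand, so reads of the overlap cannot be told apart. THRA itself averaged 12.3 ± 3.35 CPM over the 6 female breeders and 10.9 ± 2.69 CPM over the 6 male breeders (± SD), and its log2 fold change between them was 0.16 ± 0.24 (SE). Among non-breeders its means were 12.8 ± 3.27 CPM over the 5 females and 13.2 ± 4.19 CPM over the 6 males (± SD).

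NR1D2, the related receptor REV-ERB beta, stood near the same level in all groups, at a depth of 12 to 66 reads per library. Its means were 2.30 ± 0.579 CPM for female breeders, 2.43 ± 0.364 for male breeders, 2.54 ± 0.758 for female non-breeders and 2.28 ± 0.869 for male non-breeders, ± SD over the same numbers of animals. Its log2 fold change between females and males was -0.08 in breeders, with a 95% interval of -0.61 to 0.46, and 0.15 in non-breeders, with one of -0.41 to 0.71.

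DBP encodes a transcription factor of the PAR bZIP family through which the clock drives liver genes. It had between 2.79 and 12.1 CPM in female breeders with a median of 4.36, against 4.63 to 11.9 CPM with a median of 10.5 in male breeders. The 5 female non-breeders had 7.44, 4.88, 7.12, 10.1 and 7.30 CPM, against 7.19, 8.53, 4.37, 21.0, 7.47 and 9.69 CPM in the 6 male non-breeders. Female breeders 1 to 4 lay below all male breeders, while female breeder 6 lay within the male range and female breeder 5 just above it. The log2 fold change was -0.61 ± 0.38 in female over male breeders (SE, edgeR, adjusted p = 0.909), and -0.96 without female breeder 5. With the 3 libraries that stood apart left out it was -0.89 (adjusted p = 0.451 in edgeR). The difference was -0.40 ± 0.39 in female over male non-breeders, which shrank to -0.02 when male non-breeder 4, the library at 21.0 CPM, was left out. Status differences of DBP were -0.33 ± 0.39 in females and -0.12 ± 0.37 in males (log2 fold change ± SE), the female one was -0.68 without female breeder 5 and -0.18 without female breeder 3, and the male one was 0.27 without male non-breeder 4.

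In both sex comparisons 0 of 8 clock genes passed adjusted p 0.05 with edgeR, where 0.0488% of all genes passed in breeders and 0.0325% in non-breeders. At an unadjusted p under 0.05 there was 1 of 8 in breeders (NR1D1), where 5.89% of all genes were found, and 2 of 8 in non-breeders (NR1D1 and PER1), where 5.15% were. Without the 3 libraries that stood apart these were NR1D1 and DBP in breeders and PER1 alone in non-breeders. DESeq2 called 0 clock genes in both and had 1 and 2 at an unadjusted p under 0.05, and limma voom called 0 and had 2 and 2. The median log2 fold change of the 8 genes was -0.09 in breeders and 0.04 in non-breeders, beside 0.02 and 0.00 for all genes. Over both statuses edgeR again called 0 of 8, where 0.065% of all genes passed, and the clock genes with an unadjusted p under 0.05 were NR1D1 and PER1, 2 of 8, where 10.4% of all genes were found. DESeq2 called 0 there, with 2 at an unadjusted p under 0.05, and limma voom called NR1D1, with 3. Without the 3 libraries edgeR called 0, with NR1D1, PER1 and DBP at an unadjusted p under 0.05. PER1 stood there at -0.53 ± 0.23 (SE, edgeR, adjusted p = 0.429), with 8 of 11 females below the male mean of their status.

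Of 13 symbols of further clock components listed as partners, C1orf51 and CIART being the same gene, 10 had a row and 9 were tested. Among these were NPAS2, which can take the place of CLOCK, RORA, which activates ARNTL at the sites used by the NR1D receptors, BHLHE40 and BHLHE41, which repress at E-boxes, C1orf51 (the older symbol of CIART, a repressor of the activating pair), NFIL3 and TEF, which bind the sites of DBP as a repressor and an activator, and TIMELESS, named after a clock gene of the fly. RORB had a single read in all libraries. With edgeR 0 of their 54 values in the 6 planned comparisons passed and 0 had an unadjusted p under 0.05. Per comparison, 0% to 0.0488% of all genes tested passed in edgeR and 1.85% to 7.94% had an unadjusted p under 0.05. DESeq2 and limma voom also called 0 of the 54, with 1 and 6 at an unadjusted p under 0.05. C1orf51 was the lowest of them in both sex comparisons. It averaged 4.80 ± 3.77 CPM over the 6 female breeders, against 7.48 ± 2.88 CPM over the 6 male breeders, and 4.52 ± 2.28 CPM over the 5 female non-breeders, against 8.16 ± 3.20 CPM over the 6 male non-breeders (± SD). Its log2 fold change over both statuses was -0.75 ± 0.30 (SE, edgeR, adjusted p = 0.394). The other 7 partners named here differed between the sexes by -0.41 to 0.29 in breeders and by -0.31 to 0.41 in non-breeders (log2 fold change), and by status over both sexes BHLHE40 and BHLHE41 each stood at -0.38 and RORA at 0.30.

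Among 16 modifiers of clock proteins and 19 clock outputs of mouse liver that were tested, edgeR, DESeq2 and limma voom each called 0 in the 6 planned comparisons. Of the 96 values of modifiers, 4 had an unadjusted p under 0.05 in edgeR, 4 in DESeq2 and 5 in limma voom, and of the 114 values of outputs 5, 5 and 3. In edgeR 1.85% to 7.94% of all genes had such a p in a comparison, so these counts do not set the lists apart. That share is not given here for DESeq2 and limma voom. SIRT1, a deacetylase that acts on clock proteins, had a log2 fold change of 0.35 ± 0.16 in male breeders over male non-breeders (SE, edgeR, adjusted p = 0.811), and FBXL21 at -0.72 ± 0.37 in female over male breeders. Of the outputs, UPP2, a uridine phosphorylase of liver, stood at 0.93 ± 0.38 and TFRC, the transferrin receptor, at 0.54 ± 0.26 in female breeders over female non-breeders (log2 fold change ± SE). KLF15, a transcription factor of amino acid use and gluconeogenesis, stood at -0.72 ± 0.31 in female over male non-breeders (SE, edgeR, adjusted p = 0.856). These 5 genes were among the 3 of smallest p in their lists in edgeR.

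Animals of the same group differed widely in several clock genes. The biological coefficient of variation, the spread between animals of a group beyond counting noise, was 0.454 for PER2, 0.445 for NR1D1, 0.442 for DBP and 0.376 for PER1, against 0.289 in common over all genes. PER2, NR1D1 and DBP stood at the percentiles 91.0, 90.3 and 90.0 of all genes tested and PER1 at 83.2, and each of these 4 genes lay 1.49 to 1.74 times above the trend of genes at its abundance. ARNTL, CRY1, CRY2 and NR1D2 lay at 0.755 to 0.925 times that trend. Between the lowest and the highest of the 23 libraries, PER1 differed 7.35-fold, PER2 6.71-fold, DBP 7.54-fold, ARNTL 3.55-fold and CRY1 2.56-fold. C1orf51 and TIMELESS were at 0.478 and 0.483, and RORA and BHLHE41 at 0.452 and 0.451, close to PER2.

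**Figure D3:**
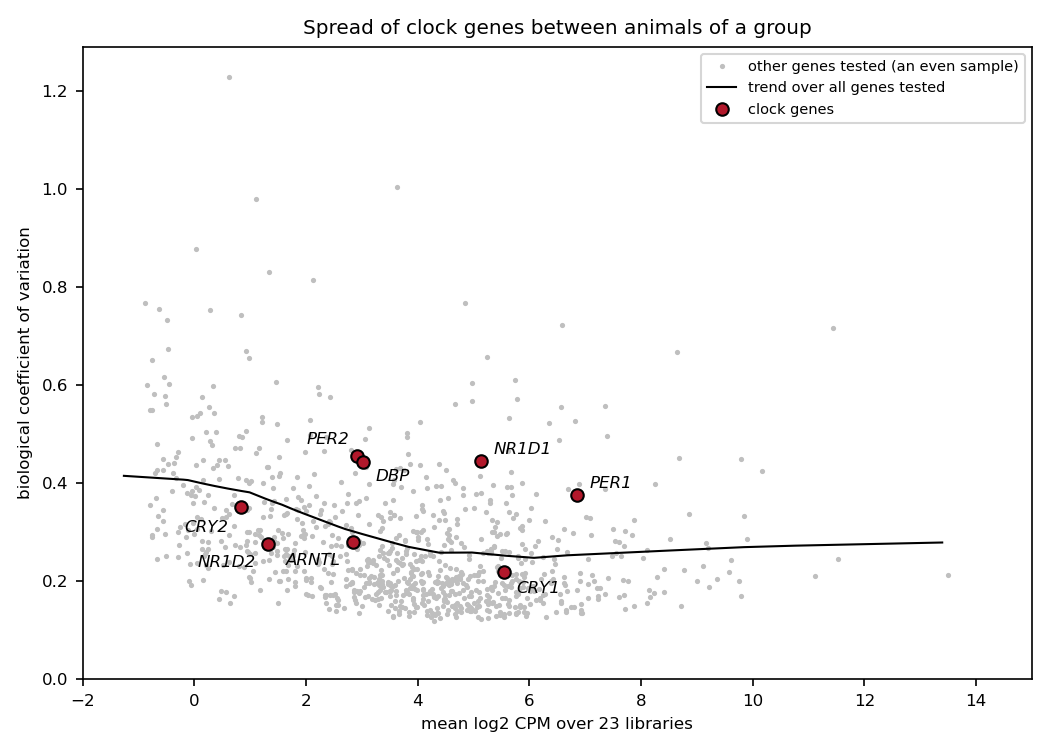
Biological coefficient of variation between animals of a group against the average log2 CPM over 23 libraries, for the 8 clock genes tested (red), an even sample of the other genes tested (grey) and the trend over all genes tested (line). PER2 at 0.454, NR1D1 at 0.445, DBP at 0.442 and PER1 at 0.376 lie above the line, while ARNTL at 0.279, CRY2 at 0.351, NR1D2 at 0.276 and CRY1 at 0.219 lie below it.

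Whether clock genes varied together was asked with log2 CPM after subtraction of the group means, over all 23 libraries and 28 pairs of members. ARNTL and PER2 varied in opposite directions, with Pearson r = -0.73 (permutation p = 0.00157 within groups, adjusted p = 0.0440) and Spearman rho = -0.60 (permutation p = 0.00894, adjusted p = 0.250). The call rests on Pearson's r. Female breeder 6 and female non-breeder 5 had the top PER2 levels, 16.3 and 18.9 CPM, and the lowest ARNTL levels of the females, 4.06 and 3.60 CPM. Without the 2 libraries farthest from the median of ARNTL r was -0.59, and without the 3 libraries that stood apart it was -0.61 (permutation p = 0.0131, adjusted p = 0.184), past the threshold no longer. Leaving out 1 library at a time gave r between -0.78 and -0.60, and the call was lost without any 1 of female breeders 1 to 6, male breeders 4 and 6, female non-breeders 2 and 5 and male non-breeders 1, 2 and 5. Within a single read length r was -0.56 among the 14 libraries of longer reads and -0.88 among the 9 of shorter reads. Within groups of 6 animals r was -0.89 in female breeders, -0.61 in male breeders and -0.17 in male non-breeders.

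The other 27 pairs did not pass. CRY1 and NR1D1 had r = -0.53 (permutation p = 0.0251, adjusted p = 0.352), and rho = -0.44. ARNTL and NR1D2 had r = -0.30 over all libraries, and -0.76 without the 3 libraries that stood apart (permutation p = 0.00058, adjusted p = 0.0162), of which male non-breeder 3 held the lowest NR1D2 level at 0.771 CPM. These libraries were chosen after seeing the data. With all libraries kept, r was -0.04 among those of shorter and -0.48 among those of longer reads. By group it was -0.04 in female breeders, -0.67 in male breeders, -0.92 in female non-breeders and -0.22 in male non-breeders. Paralogs did not vary together past the threshold: r was -0.03 between PER1 and PER2, -0.01 between CRY1 and CRY2 and -0.11 between NR1D1 and NR1D2. Each of these r values had opposite signs in the libraries of shorter and of longer reads. In that order r was 0.30 and -0.35 for PER1 and PER2, and -0.31 and 0.18 for CRY1 and CRY2. For NR1D1 and NR1D2 it was 0.15 and -0.33.

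**Figure D4:**
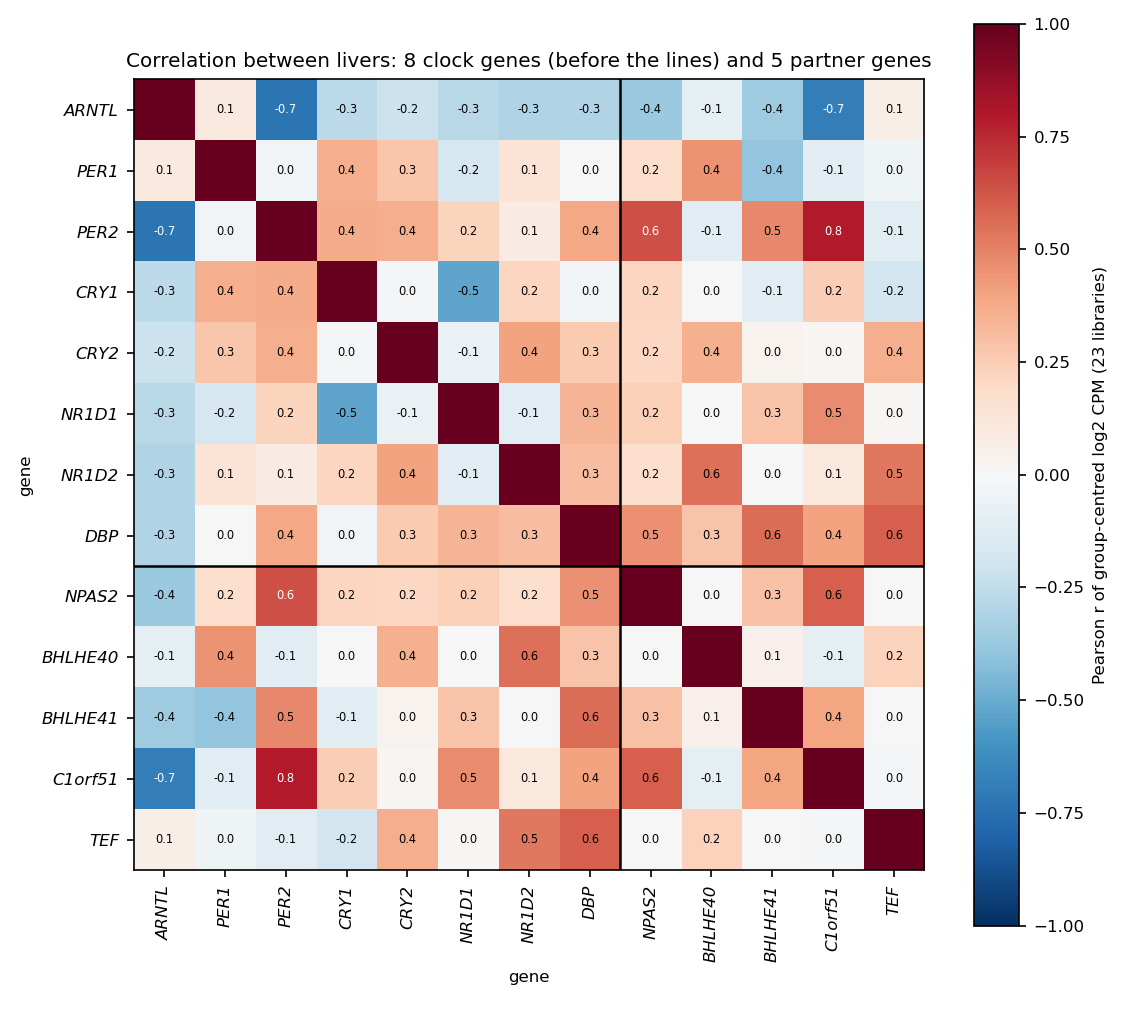
Pearson r of group-centred log2 CPM over 23 libraries, from -1 (blue) to 1 (red), between the 8 clock genes tested and the 5 partner genes whose r with a clock gene was largest in size, with the lines after the clock genes. ARNTL is blue against PER2 (-0.73) and C1orf51 (-0.69), and PER2 is red against C1orf51 (0.79) and NPAS2 (0.64).

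Against the 9 partners, 1 of 72 pairs passed. PER2 and C1orf51 varied together between animals, with r = 0.79 (permutation p = 0.00028, adjusted p = 0.0202) and rho = 0.66 (permutation p = 0.00263, adjusted p = 0.0947). Without the 2 libraries farthest from the median of PER2 r was 0.66, without the 3 libraries that stood apart 0.69 (adjusted p = 0.101, past the threshold no longer), and it was 0.75 among libraries of longer and 0.88 among those of shorter reads. ARNTL and C1orf51 had r = -0.69 (permutation p = 0.00342, adjusted p = 0.0821), and NR1D1 and NFIL3 had r = -0.50 (permutation p = 0.0025, adjusted p = 0.0821). DBP and TEF, which belong to the same protein family, had r = 0.59 (permutation p = 0.0073, adjusted p = 0.105), and 0.71 without the 3 libraries (adjusted p = 0.0115). With all libraries kept, their r was 0.34 among those of shorter and 0.82 among those of longer reads.

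**Figure D5:**
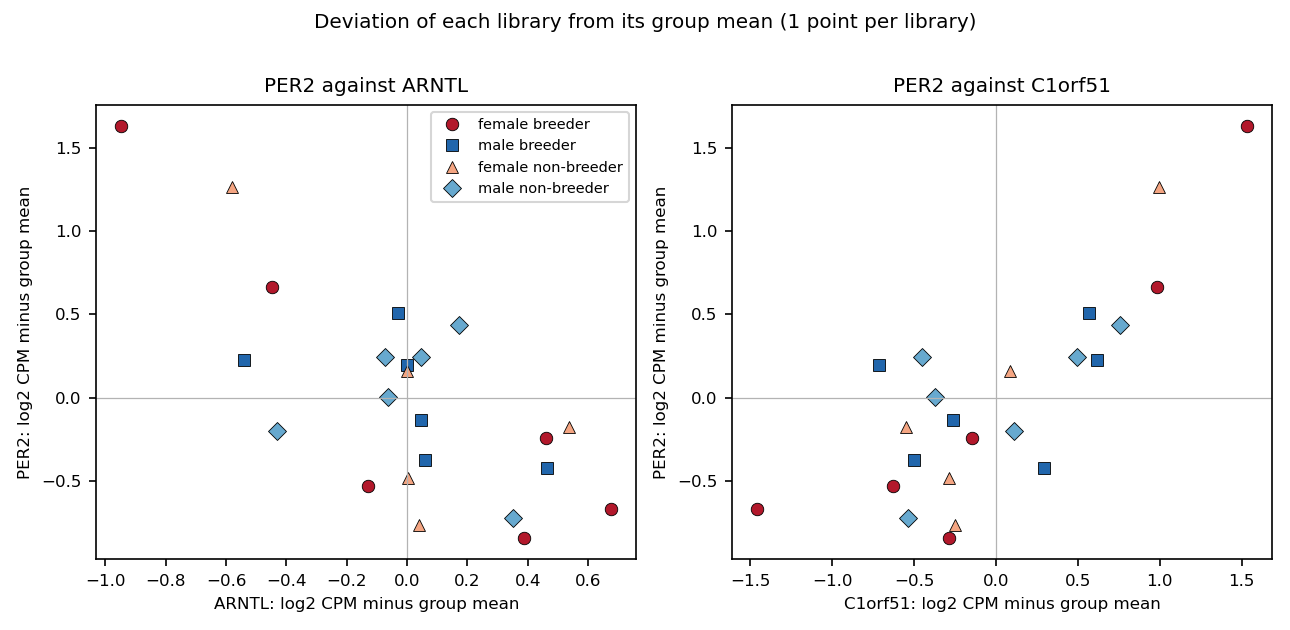
Deviation of PER2 from its group mean (log2 CPM) against that of ARNTL (left) and of C1orf51 (right), with 1 point per library and a symbol per group. PER2 runs against ARNTL (r = -0.73) and with C1orf51 (r = 0.79), and female breeder 6 and female non-breeder 5 are the libraries with the top PER2 deviations in both panels.

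PER1 varied apart from this set. Against lists of genes, depth and the first principal component, 112 relations with the 8 clock genes in all, 0 passed by Pearson's r over the 23 libraries. PER1 had r = 0.72 with the mean of 8 glucocorticoid response genes (permutation p = 0.00122, adjusted p = 0.137) and rho = 0.77 (permutation p = 0.0003, adjusted p = 0.0336), which passed by rank. That r was 0.76 without the 2 libraries farthest from the median of PER1 and 0.78 without the 3 libraries that stood apart (adjusted p = 0.0258, past the threshold), and 0.81 among the 14 libraries of longer reads against 0.13 among the 9 of shorter reads. For status, the 8 glucocorticoid response genes had median log2 fold changes of -0.23 in females and -0.05 in males. In females over males the medians were -0.18 in breeders and 0.03 in non-breeders. The part of these 8 genes in the PER1 differences was not tested. NR1D2 had r = -0.71 with the first principal component (permutation p = 0.0069, adjusted p = 0.305), and -0.20 without the 3 libraries.

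The genes most like 4 of the members, by Pearson r over 23 libraries among 12287 genes, are a description of those r values alone. For PER1 they were PPP1R3G, a glycogen-targeting subunit of a protein phosphatase, at 0.89, CSRNP1 at 0.86, the kinase SIK1 at 0.86, the elongation factor ELL2 at 0.85 and SDS, a serine dehydratase of liver, at 0.83, and the most opposite were TMEM18 at -0.87, TPD52L2 at -0.81 and INHBE at -0.81. For DBP they were CEACAM1 at 0.86, HPCAL1 at 0.83, FBLN1 at 0.82, ALDH9A1 at 0.81 and PARP1 at 0.81, and the most opposite STAC3 at -0.81, HNRNPA3 at -0.80 and MMP21 at -0.80. ARNTL was most like GRHPR, a glyoxylate reductase of liver, at 0.75, FAM155B at 0.72, POMT2 at 0.70, WNK3 at 0.68 and LEMD3 at 0.67. PER2 at -0.73 was the gene most opposite to ARNTL among all 12287, and C1orf51 stood at -0.69. For NR1D1 they were SUV420H2 at 0.72, NUCB1 at 0.70, CCDC24 at 0.68, DEDD at 0.68 and USP21 at 0.67, and the most opposite PRDM11 at -0.74, ERCC6L2 at -0.71 and DNAJB14 at -0.69.

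Age, between 2.4 and 4.1 years, had no relation to a clock gene past the threshold, with 0 of 8 called in edgeR and 0 of 8 at an unadjusted p under 0.05, where 0% and 8.02% of all genes were. DESeq2 and limma voom also had 0 at both limits. ARNTL stood at 0.29 ± 0.18 per year (log2, SE, edgeR, adjusted p = 0.641), DBP at -0.40 ± 0.30 and NR1D2 at -0.25 ± 0.19. Between male breeders of longer and of shorter reads, 3 animals each, 0 of 8 clock genes passed in edgeR and 0 had an unadjusted p under 0.05, where 0% and 1.4% of 12523 genes did. DESeq2 and limma voom also had 0 at both limits. PER1 had a log2 fold change of -0.73 ± 0.43 and CRY2 of -0.63 ± 0.45 there (SE).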

How the data were processed

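Liver RNA of 23 animals was measured by RNA-seq. The authors made poly(A)-selected libraries without strand, sequenced single-end, aligned reads with STAR 2.4.1d (submitters' notes), dropped reads with more than 1 position and assigned the rest to genes with HTSeq, using transcripts annotated with human symbols. The authors deposited whole-number counts that are not normalized. Of 16339 rows, 803 had no count, 25 carried a date for a symbol, and 0 columns belonged to other samples. Reads of close paralogs may have been lost. Totals were 16420400 ± 2588390 per library (SD, n = 23).

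Counts were tested in R 4.3.3 with edgeR 4.0.16 (filterByExpr with minimum count 10 and minimum total 15, TMM, robust quasi-likelihood F-test, two-sided, 1 mean per group over all 23 libraries, Benjamini-Hochberg over 12306 genes, threshold 0.05, 95% intervals). CPM are counts per 1000000 of TMM-scaled library size, with a prior count of 2 on the log2 scale. The p-values measure the spread between these animals. Correlations had 100000 permutations within groups (Python 3.11.15, scipy 1.17.1), adjusted over 28, 72 or 112 relations. Alternatives were DESeq2 1.42.0, its size factors in edgeR, limma 3.58.1 voom, no filter, a threshold of 0.01, age as covariate, the compared groups alone, 1 read length, and leaving out libraries. No 2 libraries of a group were copies: their chi-square over its degrees of freedom was 32.5 or more.

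The fit was tested on simulated data of 12306 genes. It recovered 63, 56, 66, 71 and 83 of 100 genes changed 2-fold and 90, 88, 91, 93 and 95 of 100 changed 4-fold, in female over male breeders, female over male non-breeders, female breeders over female non-breeders, male breeders over male non-breeders, and breeders over non-breeders. False calls were 11, 7, 7, 6 and 6. The changed genes were drawn at random, and so many of them make the adjusted p less strict than in the data, where edgeR called 0 to 6 genes. PER2, NR1D1, DBP and PER1 also spread more between animals than genes in common, at 0.376 to 0.454 against 0.289. These counts therefore do not give the power for clock genes.

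Members and lists were chosen with earlier results of these data known. Genes named were all members, the clock partners, called genes of the modifier and output lists or else the 3 of smallest p in each, and the 5 most like and 3 most opposite genes for ARNTL, NR1D1, PER1 and DBP. C1orf51 entered the partners after the files were seen, as the older symbol of CIART. The libraries that stood apart, the permutation across groups and the sex difference over both statuses were likewise chosen after seeing the data. Promoter motifs were not analysed here, and some genes that these rules name are not reported here.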

Additional observations from a re-analysis of the deposited data

Results flagged for a closer look

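In 3 of 32 checks of a clock gene within a group, a single library lay far from the rest, where chance alone gives about 1 in 20. CRY2 stood at 0.798 CPM in female breeder 3, while the other female breeders lay between 1.51 and 2.15 CPM. NR1D2 stood at 3.15 CPM in male breeder 6, while the other male breeders lay between 2.19 and 2.41 CPM. NR1D2 stood at 0.771 CPM in male non-breeder 3, while the other male non-breeders lay between 2.13 and 3.41 CPM, and this library was also one of the 3 that stood apart on the first principal component.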

How the results depend on the processing

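In 72 values of 8 clock genes over 9 comparisons, 7 had an unadjusted p under 0.05 and 0 of these changed sign under any alternative run, while 35 of the other 65 changed sign somewhere. The 7 belonged to ARNTL, NR1D1 and PER1 alone. A value with such a p lies away from 0 already, so this contrast could be foreseen and is no separate evidence. Of 1712 alternative values, 1 was called: NR1D1 between females and males over both statuses in limma voom, at -1.22, which raised the number of called clock genes in that comparison to 1, where edgeR called 0. The correlation of ARNTL and PER2 fell short of the threshold without the 3 libraries that stood apart (r = -0.61, adjusted p = 0.184), libraries chosen after seeing the data. Leaving out 1 library at a time gave r between -0.78 and -0.60 and 0 to 1 called pairs of members. With libraries permuted across groups its adjusted p was 0.00196. Over all genes, edgeR called 6, 4, 0, 0 and 0 and DESeq2 24, 6, 5, 2 and 36 in female over male breeders, female over male non-breeders, female breeders over female non-breeders, male breeders over male non-breeders and breeders over non-breeders. Limma voom called 5, 4, 0, 1 and 5. Over both statuses, female over male gave 8, 60 and 21 in the same order of tools, and the sex difference of the status effect 0, 1 and 0. A single read length could not be fitted for status in females, over both sexes, or for the sex difference of status, since females of each status had 1 read length. The compared groups alone are all groups in the last 2 of these, and the motif alternative was not run. No paired analysis was possible because replicate numbers only follow accession order and each title carries its own animal number. CRY2, NR1D2 and PER3 had 66 reads per library or fewer, and PER3 had too few to test.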
